A study of Drosophila melanogaster with 4 samples.

Results

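The domains described here are the stretches of chromosome arm 3L on which dimethylation of histone H3 at lysine 79 (H3K79me2) was called enriched in late Drosophila melanogaster embryos. They were chosen by position: every enriched region on 3L in the authors' list for the replicate set that ended before the last assembled 2 Mb at the centromere end (FlyBase release 5 coordinates, 1-based). This kept 990 of the 5314 enriched regions of that list. The same stretch held 959 of 5090 regions in the list for ChIP replicate 1 and 950 of 5061 in the list for ChIP replicate 2. The last domain inside the limit lay from 22459456 to 22461330 and scored 0.36. The next region on the arm, from 22659288 to 22663108 with a score of 0.90, fell outside, across a distance of 197957 bp without a region.

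H3K79 lies on the surface of the nucleosome, outside the histone tails, and is methylated by the Dot1 family of enzymes, which in the fly is a single gene, grappa. The mark is placed over genes that RNA polymerase II is transcribing and is usually strongest over the part just downstream of the start site. A map of its domains is therefore commonly read as a map of active genes, although no gene is named here, since the files hold positions on release 5 only.

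Chromatin came from formaldehyde-crosslinked whole embryos of the wild-type strain Oregon-R, labelled as 14 to 16 h old, and was immunoprecipitated with an antibody against H3K79me2 and sequenced. All samples share this strain, genotype and stage, and differ only in the antibody step: 2 ChIP samples, and 2 input samples of chromatin that did not pass it. Whole embryos mix all cell types, so a domain carried by few cells and a weakly marked one cannot be told apart. Each ChIP sample has a list of regions called against an input, and the list for the replicate set covers both. Read numbers are unknown. Each region carries the authors' score, which has no stated unit and is compared here by differences. Whether separate batches of embryos were used for the replicates is not stated in the labels, and their spread may only be technical.

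H3K79me2 on 3L was made of many short domains separated by mostly wider spaces. The 990 domains covered 3.52 Mb, or 15.6%, of the 22.5 Mb stretch, at 43.9 domains per Mb. Covered shares were 13.8% in replicate 1 and 15.7% in replicate 2 (14.8% ± 1.33, SD, n = 2). The number of regions differed little between the replicates, whereas the covered share was lower in replicate 1. The median domain was 3094 bp wide, with quartiles of 2436 and 4177 bp and a range from 1007 to 12603 bp. The replicate lists had median widths of 2819 bp (replicate 1) and 3169.5 bp (replicate 2). Domains of 5 kb or more numbered 154 (15.6%), against 103 (10.7%) in replicate 1 and 170 (17.9%) in replicate 2. Regions were thus wider in replicate 2.

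Scores had a low and a high peak, called here the low and the high group, with no empty range between them. In steps of 0.25, the fullest step of the low group held 106 domains, between 0.25 and 0.5, and that of the high group held 122, between 2.5 and 2.75. The step from 1 to 1.25 between them held 49. The same 2 peaks were present in each replicate list. In replicate 1 the low peak held 77 regions, between 0.25 and 0.5, and the high peak 115, between 2.75 and 3. Its steps from 0.75 to 2.25 were flat, with 52 to 57 regions each. In replicate 2 the low peak held 101 regions, between 0.5 and 0.75. Its high peak was lower on the score axis, with 120 regions in each of the steps from 2 to 2.25 and from 2.25 to 2.5. The high group of replicate 2 therefore lay below that of replicate 1, and the low groups were close to each other.

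**Figure D1:**
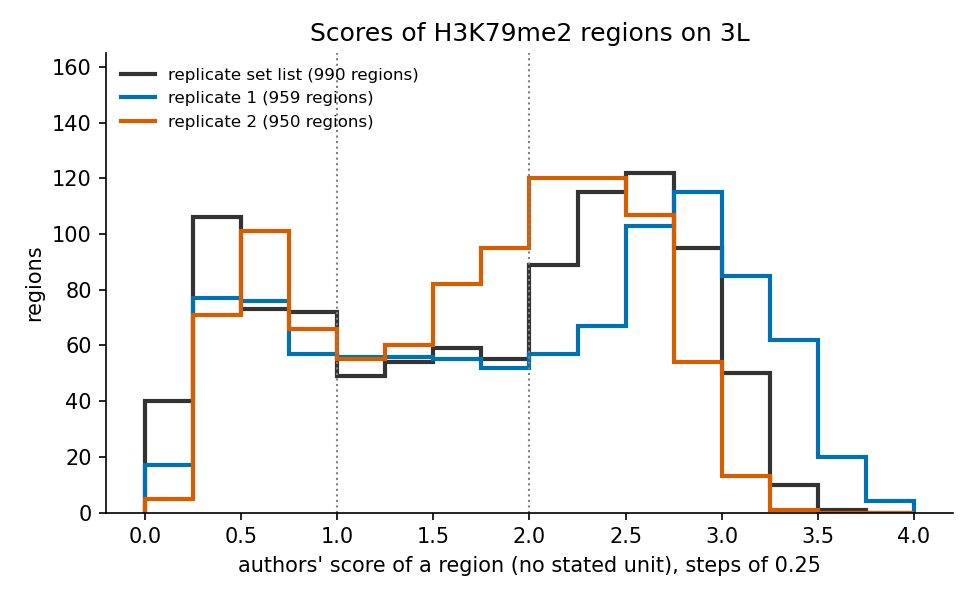
Number of enriched regions on 3L (vertical axis) by the authors' score in steps of 0.25 (horizontal axis), for the list for the replicate set (990 regions), replicate 1 (959) and replicate 2 (950); dotted lines mark scores of 1 and 2. Each list has a peak below 1 and a larger one above 2, and the upper peak of replicate 2 lies at lower scores than that of replicate 1.

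Domains scoring 2 or more held most of the covered length. They numbered 482 (48.7%) and made up 60.1% of the covered length, with a median width of 3807 bp. Domains scoring from 1 to below 2 numbered 217, with a median width of 3175 bp and 21.5% of the covered length. The 291 domains scoring under 1 (29.4%) had a median width of 2161 bp and made up 18.4% of the covered length. Regions scoring under 1 were 23.7% of those in replicate 1 and 25.6% of those in replicate 2. Regions of 2 or more were 53.5% in replicate 1 and 43.7% in replicate 2, with 64.5% and 54.4% of the covered length.

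Wider domains scored higher, with a looser relation among the high scores. All 96 domains narrower than 2 kb scored under 1, the highest at 0.51. Of the 380 domains from 2 to below 3 kb, 168 (44.2%) scored under 1, and their scores ran from 0.35 to 3.23. Of the 360 from 3 to below 5 kb, 25 (6.94%) scored under 1. None of the 48 domains of 7 kb or more did so. Across all 990 domains, width and score had a Spearman's rho of 0.71. It was 0.81 within those under 1 and 0.30 within those of 2 or more. In replicate 1 these values were 0.72, 0.89 and 0.24, and in replicate 2 they were 0.68, 0.83 and 0.30. The domains of one list share a library and a caller, so these are descriptions across domains. The caller and its lower limits of width and score are not stated, and their part in the relation was not tested. The single highest score, 3.51, belonged to a domain of 3 to below 5 kb, the class with 360 domains. Median scores still rose with width, from 2.33 in that class to 2.86 in the 12 domains of 10 kb or more.

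**Figure D2:**
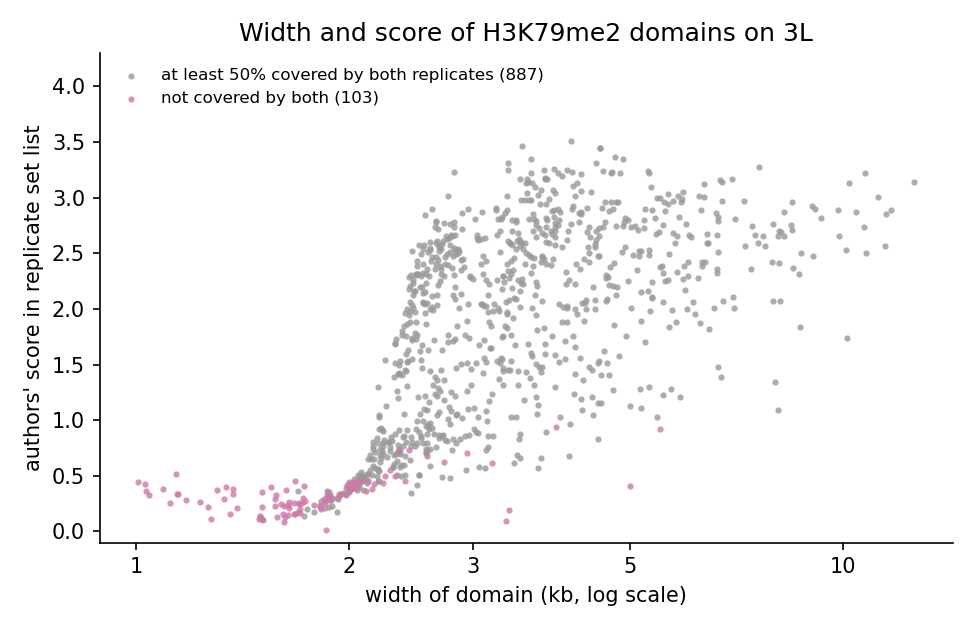
Width in kb on a log scale (horizontal axis) and the authors' score (vertical axis) of the 990 domains in the list for the replicate set; grey points are the 887 covered to at least 50% by regions of both replicates and purple points the other 103. Domains under 2 kb all lie below a score of 1, and the purple points lie at low scores.

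The widest domains that both replicates covered were spread over the arm, in 10 places from its telomere end to its centromere side, with widths of 10.2 to 12.6 kb. The widest ran from 16572668 to 16585270, 12.6 kb, with a score of 3.14. Each replicate held it as a single region, with 12.4 kb and a score of 3.32 in replicate 1 and 12.7 kb and a score of 2.93 in replicate 2. Its neighbours lay 3107 bp and 1269 bp away. It was thus a wide domain inside a close group. The domain from 19898396 to 19910084, 11.7 kb with a score of 2.89, was 1 region of 12.0 kb in replicate 2 but 2 regions in replicate 1, the larger of 6.30 kb. The domain from 18888970 to 18900194, 11.2 kb and scoring 3.01, stood more alone, with 5151 bp free on one side and 42823 bp on the other. It was 2 regions in replicate 1 and 1 in replicate 2. Near the telomere end, the domain from 828284 to 839806 followed 74799 bp without a domain and was undivided in both replicates, at 9.27 kb (replicate 1) and 12.0 kb (replicate 2). That from 255946 to 266398, 10.5 kb, again was 2 regions in replicate 1. Of the 10, 7 were divided in replicate 1 and 0 in replicate 2.

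Division of wide domains in replicate 1 was not confined to these. Of all 154 domains of 5 kb or more, 27 met more than 1 region in replicate 1 and 3 did so in replicate 2. Over all 990 domains, 28 met more than 1 region in replicate 1 and 8 in replicate 2. In the other direction, 19 regions of replicate 2 spanned more than 1 domain, against 2 regions of replicate 1. An example was the domain from 21016024 to 21026726, 10.7 kb, whose right-hand neighbour began after only 13 bp. Replicate 2 held one region of 13.8 kb across this place, and replicate 1 held 2 regions under the domain, the larger of 6.16 kb. How many separate domains a wide block contained thus depended on the list.

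The 10 highest-scoring domains covered by both replicates scored 3.27 to 3.51 and were 3.36 to 7.60 kb wide. None of them was among the 10 widest, and each met exactly 1 region in each replicate. The highest in the list for the replicate set lay from 20800560 to 20804690 (score 3.51), with scores of 3.77 in replicate 1 and 3.28 in replicate 2. Near the telomere end, the domain from 359626 to 363140 was 3.52 kb wide and scored 3.47, with 3.71 in replicate 1 and 3.17 in replicate 2. It had no neighbour within 9979 bp. Nearer still to that end, the domain from 197576 to 202340 scored 3.37, and the next domain, from 202388 to 207562, began 47 bp after it. Replicate 1 held a region over each, of 4.37 kb with a score of 3.75 and of 4.96 kb with a score of 2.05. Replicate 2 held a single region of 10.1 kb across both, with a score of 2.65. The 8 domains that replicate 2 did not join to a neighbour all scored higher in replicate 1, by 0.21 to 1.16.

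A pair of these high-scoring domains lay side by side and bordered one of the emptiest parts of the arm. The domain from 5350698 to 5355178 scored 3.31, with 3.67 in replicate 1 and 2.80 in replicate 2. After 2369 bp came the domain from 5357548 to 5362078, which scored 3.45, with 3.61 in replicate 1 and 3.22 in replicate 2. To its right the next domain began only after 180941 bp, scored 0.33 and had no region in replicate 2. This high-scoring pair thus ended at a long stretch without any region.

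The replicates marked nearly the same places on 3L. They shared 2.96 Mb, which was 95.0% of the covered length of replicate 1, 83.6% of that of replicate 2 and 80.1% of their union. Both replicates covered at least 50% of 887 domains (89.6%), against 87.5% of all 5314 enriched regions, so the share on 3L was near that of the whole series. All 699 domains scoring 1 or more were covered by both. Of the 291 scoring under 1, 188 (64.6%) were. Every domain that failed therefore scored under 1. The list for the replicate set covers the same 2 ChIP samples, so its scores and this coverage are not independent of each other. Replicate 1 had no region over 63 domains (6.36%, against 7.73% in the whole list), and replicate 2 had none over 48 (4.85%, against 6.23%). Both were missing from 13 domains (1.31%), whose median width was 1229 bp and whose scores ran from 0.11 to 0.51. Of these 13, 8 were narrower than any region of either replicate. The matching share of the whole list is not given. Of the domains under 2 kb, 25 of 96 were covered by both replicates, and of those of 5 kb or more, 152 of 154 were.

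Among the 5 widest domains that one replicate lacked, each was missing from replicate 1. The widest, from 15080642 to 15084006, was 3.37 kb with a score of 0.19 and lay over 2 regions in replicate 2. That from 14968332 to 14971516, 3.19 kb, scored 0.61 in the list for the replicate set and 1.12 in replicate 2. That from 19849822 to 19852252, 2.43 kb, scored 0.73 and, in replicate 2, 1.16. Replicate lists also held regions that met no domain. These were 5 of 959 in replicate 1, scoring at most 0.57, and 19 of 950 in replicate 2, scoring at most 0.60. Of the 959 regions of replicate 1, 39 met no region of replicate 2, and all 39 scored under 1. Of the 950 regions of replicate 2, 67 met none of replicate 1, and 65 of these scored under 1. The matching shares over the whole series are not given, so these counts are not read as a trait of 3L.

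For 823 domains, 1 region in each replicate could be paired with 1 domain and no other, and these show how the replicates differed. Their median widths were 2826 bp (replicate 1) and 3265 bp (replicate 2). Regions were wider in replicate 2 in 86.0% of pairs, with a median difference of 288 bp and quartiles of 85.5 and 540 bp. The extra width lay on both sides about equally: the left edge was further out in replicate 2 by a median of 132 bp and the right edge by 120 bp. Edges lay within 200 bp of each other for 457 left and 482 right edges. Widths had a Spearman correlation of 0.89 between the replicates, over these 823 domains.

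A shift of scores in one direction between replicates was seen mostly at the top of the scale. Over the 823 domains the median score was 2.18 in replicate 1 and 1.94 in replicate 2, with a Spearman correlation of 0.87. Among the 437 that scored 2 or more in the list for the replicate set, replicate 2 minus replicate 1 had a median of -0.45, and 87.0% scored no higher in replicate 2. Among the 198 scoring from 1 to below 2 the median difference was 0.03, and among the 188 scoring under 1 it was 0.07. Domains in these lower classes also differed, but in both directions. The quartiles were -0.31 and 0.30 from 1 to below 2, and -0.16 and 0.34 under 1. At 2 or more they were -0.68 and -0.20. The score of the list for the replicate set lay between those of the replicates for 706 of the 823, and differed from their mean by a median of -0.02. The order of domains was therefore largely shared, and the range of scores was narrower in replicate 2.

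**Figure D3:**
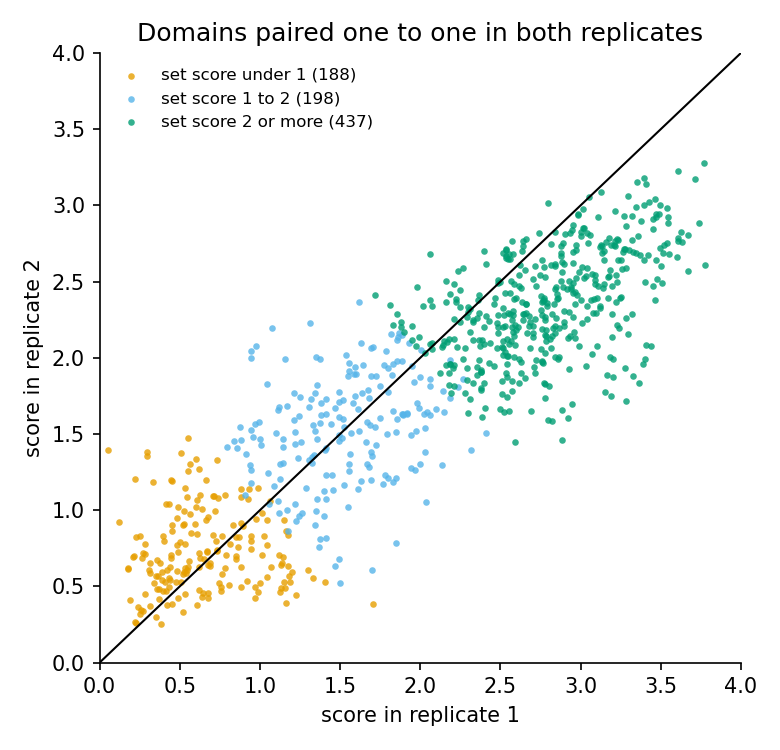
The authors' score in replicate 1 (horizontal axis) and in replicate 2 (vertical axis) of the 823 domains paired one to one in both replicates, coloured by their score in the list for the replicate set; the line marks equal scores. Domains of 2 or more lie mostly below the line (median difference -0.45), and those under 1 lie around it (median difference 0.07).

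Single domains differed by more, in either direction. The largest difference in favour of replicate 1 was at 18752998 to 18759660, with scores of 3.28 in replicate 1 and 1.72 in replicate 2. The domain from 15817226 to 15822130 scored 3.37 in replicate 1 and 1.84 in replicate 2. The largest in favour of replicate 2 was at 5653972 to 5656160, where replicate 1 scored 0.05, the lowest value of that list on the stretch, and replicate 2 scored 1.39. The domain from 16586540 to 16589076, the right-hand neighbour of the widest domain, scored 1.08 in replicate 1 and 2.19 in replicate 2, while the widest domain beside it was lower in replicate 2. Neighbours 1269 bp apart thus differed between the replicates in opposite directions.

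Along the arm the mark was uneven, with dense and sparse parts alternating rather than a steady change from one end to the other. Over the 22 whole 1-Mb bins, coverage in the list for the replicate set ran from 5.99% to 22.2%. The most covered bins, by the mean of the replicates, were the second (21.4% ± 2.16, SD, n = 2), the fourth (20.6% ± 2.26) and the 17th (20.4% ± 2.11), counted from the telomere end. They held 60, 59 and 56 domains. The least covered were the 11th (5.75% ± 0.54), the 19th (9.32% ± 0.65) and the 15th (9.87% ± 1.90), with 15, 27 and 29 domains. The differences between these dense and sparse bins exceeded the difference between replicates in every case, and the bins had a Spearman correlation of 0.98 between replicates (22 bins of the same libraries). Bins with more coverage had more domains (rho 0.97 over the 22 bins) and not wider ones (rho -0.12 between coverage and median width).

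**Figure D4:**
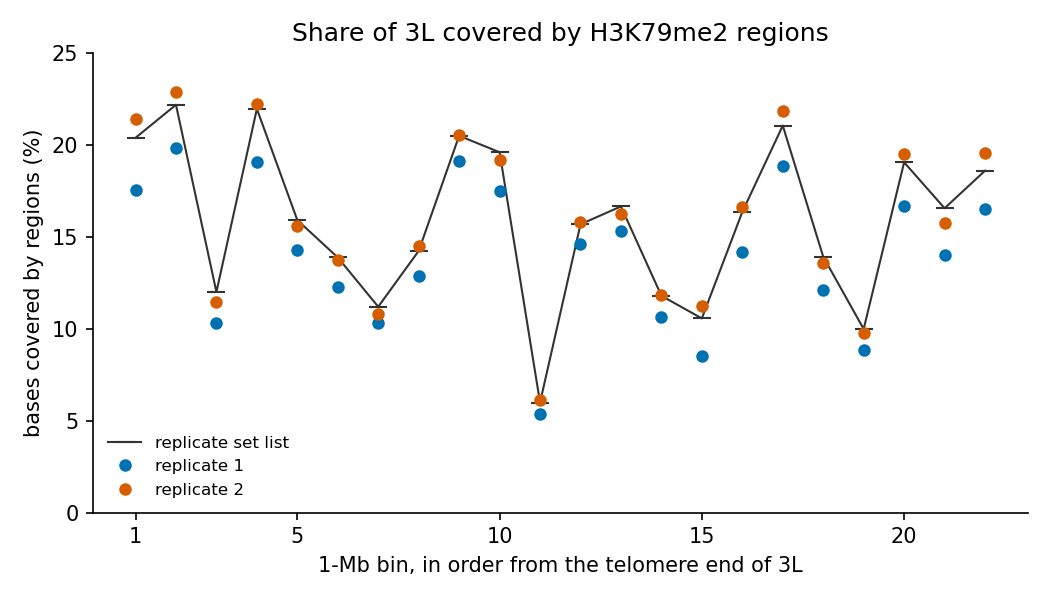
Percent of bases covered by regions (vertical axis) in the 22 whole 1-Mb bins of 3L in order from the telomere end (horizontal axis); blue and orange points are replicates 1 and 2, and the black line is the list for the replicate set. The 11th bin is lowest in both replicates, at 5.36% and 6.13%, and the second is highest, at 19.8% and 22.9%.

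Sparse bins were not alike in the scores of their domains. In the 11th bin the 15 domains had a median score of 2.33, higher than in any other bin, and 6.67% of them scored under 1. Its median scores were 2.52 in replicate 1 and 2.18 in replicate 2. In the 19th bin the 27 domains had a median score of 1.03, lower than in any other bin, and 44.4% scored under 1. Its median scores were 1.25 in replicate 1 and 1.30 in replicate 2, also the lowest of the 22 bins in each. The 11th bin thus had few but high-scoring domains, and the 19th few and low-scoring ones.

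At a finer scale, 15 of 225 windows of 100 kb held no region in any of the 3 lists, and the median window was covered to 14.3%. By the mean of the replicates, the most covered window ran from 9400001 to 9500000, with 41.9% in replicate 1 and 46.1% in replicate 2 over 11 domains. The next were that from 3100001 to 3200000, with 41.5% and 44.6% over 12 domains, which was the most covered in the list for the replicate set (46.4% against 45.2%), and that from 8100001 to 8200000, with 40.5% and 42.1% over 13. The 22 most covered windows held 23.2% of the covered length.

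Neighbouring domains lay a median of 7263 bp apart, with quartiles of 2587 and 20537 bp. Replicate 1 gave a median of 7589 bp and replicate 2 one of 7484 bp. Distances under 5 kb made up 39.5% of all, and 73 were under 500 bp. Joining domains less than 5 kb apart gave 90 runs of 3 or more domains, which held 359 domains (36.3%) over 8.23% of the stretch. A further 244 domains stood in 122 pairs, and 387 (39.1%) had no neighbour within 5 kb. The longest runs had 9 domains. One ran from 7314990 to 7365762, 50.8 kb covered to 69.8%, with 8 of its 9 domains scoring 2 or more. Both replicates held 9 regions there, over 61.8% of the run in replicate 1 and 71.9% in replicate 2. The other, from 4277034 to 4323164, was 46.1 kb long with 4 domains of 2 or more and 2 under 1, and again 9 regions in each replicate. A run of 8 from 12475928 to 12531266 spanned 55.3 kb, and another of 8 from 310194 to 349646 spanned 39.5 kb with 3 of its domains under 1. The most heavily covered of the 5 largest runs had 7 domains from 9415548 to 9458126 with regions over 69.5% of its length in replicate 1 and 75.3% in replicate 2. It lay inside the window of 100 kb that was most covered by the mean of the replicates.

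In all 3 lists, median scores were higher for domains with close neighbours than for lone ones, a description without a test. The median score was 2.26 in runs of 3 or more, 2.10 in pairs and 1.42 for lone domains. Scores under 1 made up 21.4% of domains in runs and 39.5% of lone ones. With runs built from its own regions, replicate 1 gave a median of 2.45 in runs and 1.62 for lone regions. Replicate 2 gave 2.05 and 1.60, a smaller difference in the same direction. Lone domains were also somewhat narrower, with a median of 2865 bp against 3229 bp in runs. Both replicates covered 85.8% of lone domains and 93.3% of those in runs. The score of one domain told little of the next: Spearman's rho between neighbours was 0.14 over 989 pairs, 0.10 in replicate 1 and 0.17 in replicate 2. Depth and the caller's way of joining regions can move with both measures, and their part was not tested. The most isolated domains, 25 with no neighbour within 50 kb on either side, had a median score of 1.48. Of these 25, 28.0% scored under 1, near the 29.4% of all domains. Both replicates covered 22 of them (88.0%), near the 89.6% of all domains.

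**Figure D5:**
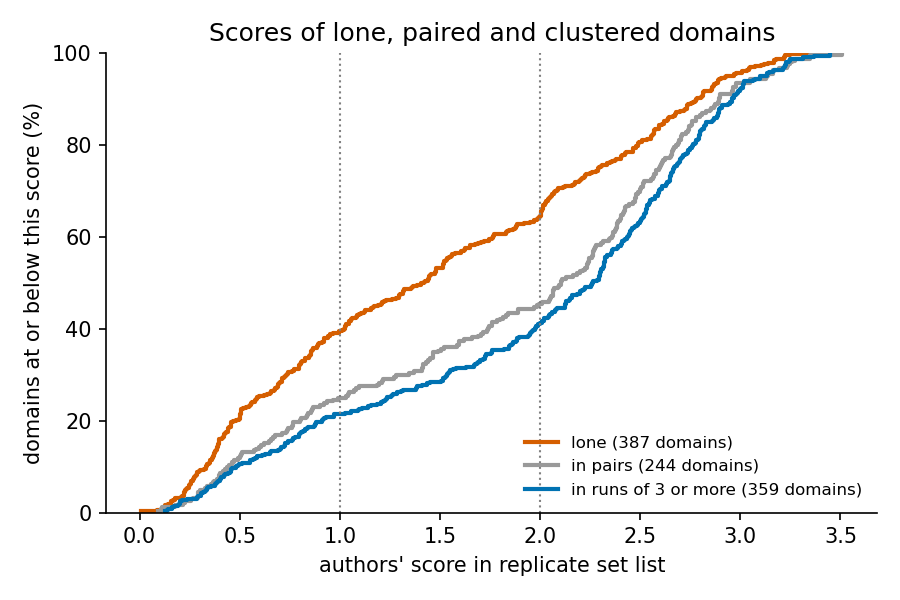
Cumulative percent of domains (vertical axis) at or below a given score in the list for the replicate set (horizontal axis), for 387 lone domains, 244 in pairs and 359 in runs of 3 or more with less than 5 kb between neighbours; dotted lines mark scores of 1 and 2. The curve of lone domains lies above the others, with 39.5% of them under 1 against 21.4% in runs.

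Empty stretches took up much of the arm. Distances of 50 kb or more between neighbouring domains numbered 104 and made up 42.4% of the stretch, and 35 of them were 100 kb or more (21.5%). Replicate 1 had 110 such distances of 50 kb or more (45.3%), and replicate 2 had 110 (45.0%). Of the 104, 99 held no region of either replicate, 1 held a region of replicate 1 and 4 held one of replicate 2. The arm also began empty, with 128547 bp before the first domain. The longest stretch without a region in any list ran from 18179578 to 18390212 (211 kb), in the sparse and weakly marked 19th bin. Next were those from 9968925 to 10177579 (209 kb), reaching into the sparse 11th bin, and from 13660505 to 13858520 (198 kb). These were bordered by weak domains, scoring 0.95 and 0.42, 0.33 and 0.39, and 1.09 and 0.44 on their left and right sides. Some of these borders were found in a single replicate. The domain from 18390270 to 18392274 had no region in replicate 1, and that from 10177580 to 10179624 had none in replicate 2. Taken alone, the list for replicate 1 left up to 273631 bp empty, and that for replicate 2 up to 221837 bp. Where such stretches ended thus depended on the list. The stretch from 10688145 to 10849985 (162 kb), also in the 11th bin, was bordered by strong ones, scoring 2.56 and 2.33. Of the 208 borders of the 104 long distances, 72 (34.6%) were domains scoring under 1, against 29.4% of all domains. Whether reads can be placed uniquely in the empty stretches was not measured here.

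Set beside the other large arms, each likewise without its assembled 2 Mb at the centromere end, 3L was close to most in amount and had the largest share of lone domains. Its covered share was 14.8% ± 1.33 (SD, n = 2), against 13.7% ± 1.11 of 2L, 14.6% ± 1.53 of 3R, 15.3% ± 1.79 of X and 17.7% ± 1.76 of 2R. Replicate 2 covered more than replicate 1 on every arm, so arms are better compared within a list. In replicates 1 and 2, 3L had 13.84% and 15.73%, 2L 12.92% and 14.49%, 3R 13.50% and 15.66%, and X 14.08% and 16.61%. In all 3 lists 3L lay above 2L and 3R and below X and 2R. Its share of lone regions was 40.6% in replicate 1 and 39.2% in replicate 2, the highest of the 5 arms in each. Those of 3R were 38.3% and 35.5%, those of X 37.7% and 34.0%, those of 2L 35.5% and 34.4%, and those of 2R 35.3% and 34.8%. In the list for the replicate set the share was 39.1% on 3L and 34.6% to 36.2% on the other 4 arms. Only the limit of 5 kb was used for the other arms. The share in runs of 3 or more was lower on 3L than on 2L, 3R and 2R in all 3 lists, and near that of X. In replicate 1 it was 37.3% on 3L, 34.0% on X, 41.1% on 2L, 39.9% on 3R and 43.1% on 2R. In replicate 2 it was 36.6% on 3L, 37.7% on X, 40.5% on 2L, 41.6% on 3R and 41.3% on 2R. In the list for the replicate set it was 36.3% on 3L, 35.8% on X, 40.9% on 2L, 40.4% on 3R and 44.7% on 2R. Distances of 50 kb or more made up 45.1% ± 0.22 of 3L, against 50.8% ± 0.16 of 2L, 47.0% ± 2.01 of 3R, 50.0% ± 0.73 of X and 35.3% ± 0.48 of 2R. With 2 samples of 1 group there is no test of a difference between arms, and the replicates of each arm come from the same libraries.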

How the data were processed

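Chromatin immunoprecipitation and sequencing gave 2 ChIP samples and 2 input samples. Per the submitters' processing notes, the aligner was Bowtie 0.12.7. Positions are on FlyBase release 5, per the file headers. Which caller made the regions, at which threshold, and how the replicate set was combined is not given in the sources used here. The labels cross the numbers of the inputs, the first input belonging to ChIP replicate 2 and the second to ChIP replicate 1. The inputs were not analysed on their own. Each deposited region carries a score by the authors, with no stated unit. In the list for the replicate set all 990 starts and ends on the stretch were even numbers, whereas in replicate 1 477 of 959 starts were, so the lists were not drawn on the same grid. Of the 990 domains, 13 were narrower than any region of either replicate.

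The 990 domains and the measures were chosen with earlier results of these data known. A domain was covered where regions made up at least 50% of its length. Score limits of 1 and 2, runs with less than 5 kb between neighbours and empty stretches of at least 50 kb are round values. Places named came from the 10 widest and 10 highest-scoring domains covered by both replicates, the extremes of score difference, the 5 widest missing from a replicate, the 5 largest runs, the 10 longest empty stretches and the extreme bins and windows. The ones printed were picked from these with their values known. Values are given per list, with mean ± SD over the replicates (n = 2). With 1 group and no counts there is no test, no interval for depth and no p-value. No release 5 genome or annotation was used, so no gene is named and no sequence shown. Code ran in Python 3.11.15 with numpy 2.4.6, pandas 2.3.3, scipy 1.17.1 and matplotlib 3.10.9, and was tested on simulated data.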

Additional observations from a re-analysis of the deposited data

How the results depend on the processing

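No paired analysis was possible because no values of the input group enter and no test was made. Of 65 alternative values for 12 results, 33 stayed within 1 SD of the replicates (for numbers, within 1.5 times) and 32 moved. Keeping the higher-scoring 50% of each list left 495 domains by construction and gave 9.59% covered, a median width of 3803 bp, a median score of 2.57, a median distance of 12994 bp, 68.6% of the stretch in distances of 50 kb or more, 20.8% of domains in runs, a range over bins of 9.79 percentage points, 83.4% covered by both replicates and a correlation of width and score of 0.30. With neighbours closer than 500 bp merged, the median distance was 8634 bp and 30.1% of domains were in runs. The whole arm gave a median distance of 7493 bp, 45.8% in long distances, 35.5% in runs and a range over bins of 18.7 points against 16.2. Other limits gave 20.9% in runs at 3 kb and 53.2% at 8 kb, a range of 26.5 points in bins of 500 kb, 35 stretches and 21.5% of the arm at 100 kb, and 78.6% covered by both where 80% of the length was required.

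With one replicate list in place of the list for the replicate set, covered share was 13.8% to 15.7%, median width 2819 to 3169.5 bp, median distance 7484 to 7589 bp, long distances 45.0% to 45.3%, domains in runs 36.6% to 37.3%, the range over bins 14.5 to 16.8 points and the share covered by the other replicate 91.7% to 95.4%. The higher score of domains in runs over lone ones, 0.84, was 0.83 in replicate 1, 0.45 in replicate 2 and 0.82 after merging, alternatives chosen after seeing the data. The cause of these shifts was not tested, beyond fewer regions by construction. Depth is unknown, so a missing region cannot be told from one the depth could not reach.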
